A study of Mus musculus with 6 samples.

Results

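The TAM system comprises 5 genes here: the ligands Pros1 and Gas6 and the receptor tyrosine kinases Tyro3, Axl and Mertk. They were selected on the normalized counts of Pros1, which were higher in every line labelled Rag1KO than in every line labelled WT, from the 55401 genes measured by RNA sequencing in 6 mouse cancer cell lines. The other 4 complete its ligand and receptor family. That choice used the contrast between the groups, so the members' differences between groups are given as a description, with no test.

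Each line was grown from a primary tumour of a C57BL/6 mouse, after mechanical and enzymatic dissociation and culture in DMEM with serum. The labels give the host genotype as Rag1KO for 3 lines (replicates 1, 3 and 7) and as WT for 3 (replicates 2, 4 and 6). Rag1 is needed for V(D)J recombination, without which T and B cells do not mature, so by their labels the groups differ in whether the tumour grew beside an adaptive immune system. The labels give neither the tumour type nor the age of the hosts, and they do not say that each line came from its own animal, so every p-value measures the spread between these samples.

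Protein S, encoded by Pros1, and Gas6 are secreted proteins whose Gla domain, modified by a vitamin K-dependent carboxylase, binds phosphatidylserine on dying cells and on other exposed membranes. Their carboxy-terminal part binds TAM receptors: Gas6 binds Tyro3, Axl and Mertk, while protein S acts on Tyro3 and Mertk and little on Axl. The receptors mediate engulfment of apoptotic cells and damp innate immune responses in macrophages and dendritic cells, and Axl is often abundant in mesenchymal tumour cells. Protein S also circulates as an anticoagulant cofactor.

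The unit used below, the normalized count, is the number of reads of a gene scaled by the library's size factor, and the libraries held 55409583 to 62998051 reads. The labels were checked against Rag1 itself: it had 41, 109 and 183 reads in the lines labelled Rag1KO 1, 3 and 7 and 0 reads in each line labelled WT, which goes against the labels if the knockout removes the transcript. The part of Rag1 that was deleted is not given in the sources used here, so the genotypes are given as labelled throughout, and every direction between groups is one between labels. The lines labelled Rag1KO and WT replicate 6 had reads of the Y-linked genes Kdm5d, Uty and Ddx3y, and WT replicates 2 and 4 had Xist and at most 2 reads of any of these. Eif2s3y, also Y-linked, had 1484 to 2541 reads in the lines labelled Rag1KO and 0 reads in all 3 labelled WT, replicate 6 included. The host label thus largely coincides with a difference in these sex-linked genes, WT replicate 6 being the line labelled WT with Y-linked reads. Host label and sex-linked difference cannot be told apart for the results below. WT replicate 6 stood apart from the other lines: of 16137 genes tested, it was the lowest line for 4871 (30.2%) and the highest for 4419 (27.4%). Results that rest on it are given with and without it.

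The stretches of 250 bases just upstream of the RefSeq start sites (GRCm38.p6) are shown for the 4 members whose RNA varied most between lines, written 5′ to 3′ on the gene's strand. Capitals mark the GC box, GGGCGG on either strand, a motif of the Sp transcription factor family.
Pros1: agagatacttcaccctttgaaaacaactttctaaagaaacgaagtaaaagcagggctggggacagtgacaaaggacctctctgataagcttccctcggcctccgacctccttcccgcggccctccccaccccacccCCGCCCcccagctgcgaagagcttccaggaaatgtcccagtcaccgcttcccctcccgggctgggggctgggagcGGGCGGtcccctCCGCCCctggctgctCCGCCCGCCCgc
Gas6: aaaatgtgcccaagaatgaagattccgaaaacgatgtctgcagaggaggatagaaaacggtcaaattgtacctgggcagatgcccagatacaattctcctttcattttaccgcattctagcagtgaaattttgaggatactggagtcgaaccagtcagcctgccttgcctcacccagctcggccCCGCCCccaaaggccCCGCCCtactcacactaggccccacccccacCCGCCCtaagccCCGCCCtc
Axl: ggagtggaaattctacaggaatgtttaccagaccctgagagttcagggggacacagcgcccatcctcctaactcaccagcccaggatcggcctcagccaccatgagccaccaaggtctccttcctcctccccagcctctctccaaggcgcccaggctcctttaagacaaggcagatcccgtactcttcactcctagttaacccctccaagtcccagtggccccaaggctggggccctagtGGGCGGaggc
Mertk: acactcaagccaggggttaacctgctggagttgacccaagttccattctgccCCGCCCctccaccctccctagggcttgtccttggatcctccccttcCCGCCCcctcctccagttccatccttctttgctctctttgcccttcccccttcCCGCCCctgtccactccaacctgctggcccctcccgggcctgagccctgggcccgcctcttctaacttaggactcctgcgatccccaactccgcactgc
They lie at chr16:62854057-62854306 on the plus strand, chr8:13494536-13494785 on the minus strand, chr7:25788734-25788983 on the minus strand and chr2:128698665-128698914 on the plus strand. The Pros1 window held 5 GC boxes, of which the last 2 overlap by 2 bases, and 15 CpG. The Gas6 window held 4 GC boxes and 10 CpG, the Mertk window 3 and 7, and the Axl window 1 and 5. Tyro3, whose window is not shown, had 3 GC boxes and 24 CpG. Over 32851 RefSeq promoter windows of the same length, 32.7% held at least 1 GC box and the median was 6 CpG. Other motifs searched on both strands were GGAATG of TEAD factors (12.6% of windows), TGANTCA of AP-1 (6.75%) and TTCNNNGAA of STAT factors (7.02%). The Axl window held 1 GGAATG, the Pros1 window 1 TTCNNNGAA, and no other of these matches was found in the 5 windows. These are letter matches, not binding sites.

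Pros1 (ENSMUSG00000022912.8, chr16:62854307-62929346, plus strand) was the ligand on which the choice rested. The lines labelled Rag1KO had 4247, 5309 and 4030.1 normalized counts of Pros1 in replicates 1, 3 and 7, and those labelled WT had 2332, 2339 and 1769.6 in replicates 2, 4 and 6. The groups did not overlap, and the lowest line labelled Rag1KO stood 1.72-fold above the highest line labelled WT. The means were 4529 ± 684 and 2147 ± 327 normalized counts (SD, n = 3), a log2 difference of 1.08 with an SE of 0.20, or 2.11-fold. Without WT replicate 6, the lowest of the 6 lines, the log2 difference was 0.94. By this measure 904 of 16137 genes tested (5.60%) were higher in every line labelled Rag1KO, and 1 of the 5 members, Pros1, was among them. Since Pros1 was chosen for this, nothing is read from the count. In bulk RNA from a culture, fewer cells making a transcript and less of it per cell cannot be told apart.

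Gas6 (ENSMUSG00000031451.6, chr8:13465374-13494490, minus strand), the ligand of all 3 receptors, was abundant in 5 lines and nearly absent from the sixth. The lines labelled Rag1KO had 19967, 34513 and 14070.4 normalized counts of Gas6 in replicates 1, 3 and 7, and WT replicates 2 and 4 had 11378 and 26527. WT replicate 6 had 1.76 normalized counts, which is 2 reads (95% Poisson interval 0.242 to 7.22 reads). The lowest of the other lines, WT replicate 2, was 6465-fold above it, with a counting interval of 1790-fold to 53384-fold. Among genes tested, 7 with Gas6 included (0.0434%) were at least as far below the median of the other 5 lines in WT replicate 6, where Gas6 stood at -12.82 on the log2 scale. The groups overlapped. The log2 difference between groups, 4.5 with an SE of 3.47, rested on this 1 line: it was 0.30 without it, and edgeR, which compares mean counts, gave 0.87. The oppositely oriented gene Tmem255b, which overlaps the end of Gas6, had at most 15.1 normalized counts in any line.

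Axl (ENSMUSG00000002602.16, chr7:25757273-25788705, minus strand) was the most abundant receptor RNA. The lines labelled Rag1KO had 31424, 46873 and 57881 normalized counts of Axl in replicates 1, 3 and 7, and those labelled WT had 53651, 48737 and 90195 in replicates 2, 4 and 6. The groups overlapped, Rag1KO replicate 1 being the lowest line and WT replicate 6 the highest, 1.56-fold above the next. The log2 difference, Rag1KO minus WT, was -0.49 with an SE of 0.35, -0.22 without WT replicate 6 and -0.25 without Rag1KO replicate 1.

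Tyro3 (ENSMUSG00000027298.17, chr2:119797733-119818104, plus strand), a receptor best known from the nervous system and from dendritic cells, varied least. The lines labelled Rag1KO had 1703, 1692 and 1982 normalized counts of Tyro3, and those labelled WT had 1201, 1634 and 2401, in the same order of replicates. The lowest and the highest line were both labelled WT. The log2 difference was 0.09 with an SE of 0.29, which became 0.35 without WT replicate 6 and -0.15 without WT replicate 2.

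Mertk (ENSMUSG00000014361.5, chr2:128698956-128802894, plus strand), the receptor that macrophages use to take up apoptotic cells, was the least abundant receptor in 5 lines. The lines labelled Rag1KO had 322, 191 and 205 normalized counts of Mertk and WT replicates 2 and 4 had 411 and 534. WT replicate 6 had 8814 normalized counts, 16.5-fold above the next line, and 138 of the genes tested with Mertk included (0.855%) were at least as far above the median of the other lines there. Every line labelled WT was above every line labelled Rag1KO, as for 1047 of 16137 genes tested (6.49%), with the lowest of the former 1.28-fold above the highest of the latter. The log2 difference was -2.41 with an SE of 1.19 in limma, -3.75 in edgeR and -1.0 without WT replicate 6, when the groups still did not overlap. Among genes tested, 1805 (11.2%) were higher in both remaining lines labelled WT, and 1517 (9.40%), Pros1 again among them, were higher in every line labelled Rag1KO. The antisense gene Gm14011, which overlaps Mertk, had 0 reads in all lines.

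**Figure D1:**
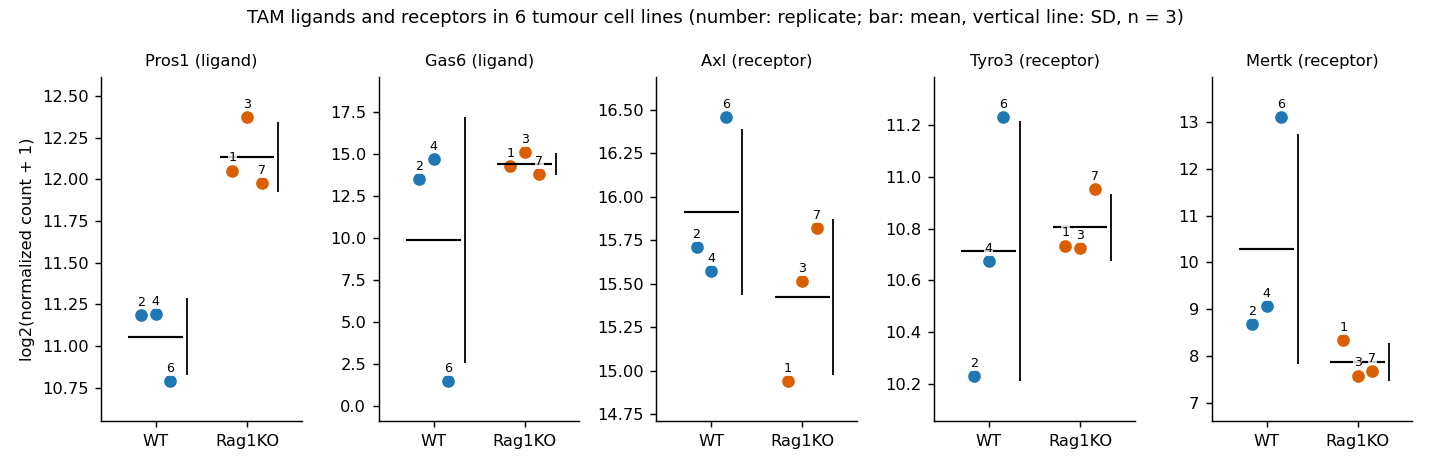
Each panel plots log2(normalized count + 1) of 1 gene in the 6 lines, WT in blue and Rag1KO in orange, with the replicate number above each point, the mean as a horizontal bar and the SD (n = 3) as a vertical line; the vertical scales differ between panels. The 3 Rag1KO points of Pros1 lie above the 3 WT points, while for Gas6 and Mertk the WT spread comes from replicate 6, at 1.76 and 8814 normalized counts.

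The SD of log2 values over the 6 lines was 5.26 for Gas6, 2.05 for Mertk, 0.62 for Pros1, 0.49 for Axl and 0.33 for Tyro3, against a median of 0.49 over all genes tested. Without WT replicate 6 the SD was 0.65 for Gas6, 0.63 for Mertk, 0.54 for Pros1, 0.34 for Axl and 0.26 for Tyro3. Gas6 and Mertk thus varied about as much as Pros1 among the other 5 lines.

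Levels of different genes were compared per length, as TPM (reads per kilobase of the union of a gene's exons, scaled to the same sum in every line). Axl ranged from 346 to 976 TPM, Gas6 from 221 to 696 TPM outside WT replicate 6 and 0.0376 TPM in it, Pros1 from 23.6 to 66.7 TPM, Tyro3 from 9.59 to 21.1 TPM, and Mertk from 2.26 to 6.39 TPM outside WT replicate 6 and 111 TPM in it. Axl was above at least 97.2% of tested genes in every line, and Gas6 above at least 95.2% in 5 lines and 6.39% in WT replicate 6.

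Axl made up nearly all TAM receptor RNA. Its share of the summed receptor TPM was 94.7%, 96.7% and 96.9% in the lines labelled Rag1KO (replicates 1, 3 and 7) and 97.4%, 96.2% and 88.1% in those labelled WT (replicates 2, 4 and 6). Mertk supplied 9.99% in WT replicate 6 and 0.399% to 1.22% in the other lines. Tyro3 supplied 1.77% to 4.17% over the 6 lines, the highest being Rag1KO replicate 1.

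Within lines, Axl exceeded Tyro3 per length in 6 of 6 lines, by 22.7-fold to 55.0-fold. The mean log2 ratio was 5.21 ± 0.43 (SD, n = 6), an exact two-sided sign-flip permutation test gave p = 0.03125, the smallest that 6 lines allow, and 0.0625 after Benjamini-Hochberg adjustment over the 4 pairs compared. Axl also exceeded Mertk in 6 of 6 lines, by 78.6-fold to 243-fold in 5 of them and by 8.82-fold in WT replicate 6. The mean log2 ratio was 6.38 ± 1.72 (SD, n = 6), with the same exact p of 0.03125 and the same adjusted 0.0625, and 7.03 without WT replicate 6. With 4 pairs, the adjusted values of these tests could therefore not pass 0.05 unless more pairs reached the smallest p. Tyro3 exceeded Mertk in 5 of 6 lines, by 2.05-fold to 6.75-fold, whereas in WT replicate 6 Mertk was 5.25-fold above Tyro3. Their mean log2 ratio was 1.17 ± 1.89 (SD, n = 6, exact permutation p = 0.1875, adjusted 0.25). Without WT replicate 6 it was 1.88, or 3.68-fold, with an exact permutation p of 0.0625, the smallest that 5 lines allow.

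Gas6 was the major ligand RNA except in 1 line. It made up 88.3%, 91.3% and 84.9% of the summed ligand TPM in the lines labelled Rag1KO, 88.7% and 94.8% in WT replicates 2 and 4, and 0.159% in WT replicate 6, where Pros1 made up 99.8%. Per length, Gas6 exceeded Pros1 by 5.60-fold to 18.2-fold in 5 lines, and Pros1 exceeded Gas6 in WT replicate 6 by 627-fold, with a counting interval of 173-fold to 5175-fold from the 2 Gas6 reads. The mean log2 ratio of Gas6 to Pros1 was 1.11 ± 5.13 (SD, n = 6, exact permutation p = 0.65625, the same after adjustment). Without WT replicate 6 it was 3.19, or 9.11-fold, with an exact p of 0.0625, the smallest that 5 lines allow. Although Pros1 was higher in the lines labelled Rag1KO, it supplied 11.7%, 8.75% and 15.1% of ligand RNA there, against 11.3% and 5.21% in WT replicates 2 and 4, so these shares overlap.

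The balance of ligand to receptor RNA varied widely between lines of both groups. Summed ligand over summed receptor TPM was 1.35, 1.54 and 0.548 in the lines labelled Rag1KO and 0.460, 1.09 and 0.0213 in those labelled WT, so the groups overlapped. In WT replicate 6 the receptor sum was the highest of all lines, 1108 TPM against 365 to 671 TPM, and the ligand sum the lowest, 23.6 TPM against 249 to 762 TPM.

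**Figure D2:**
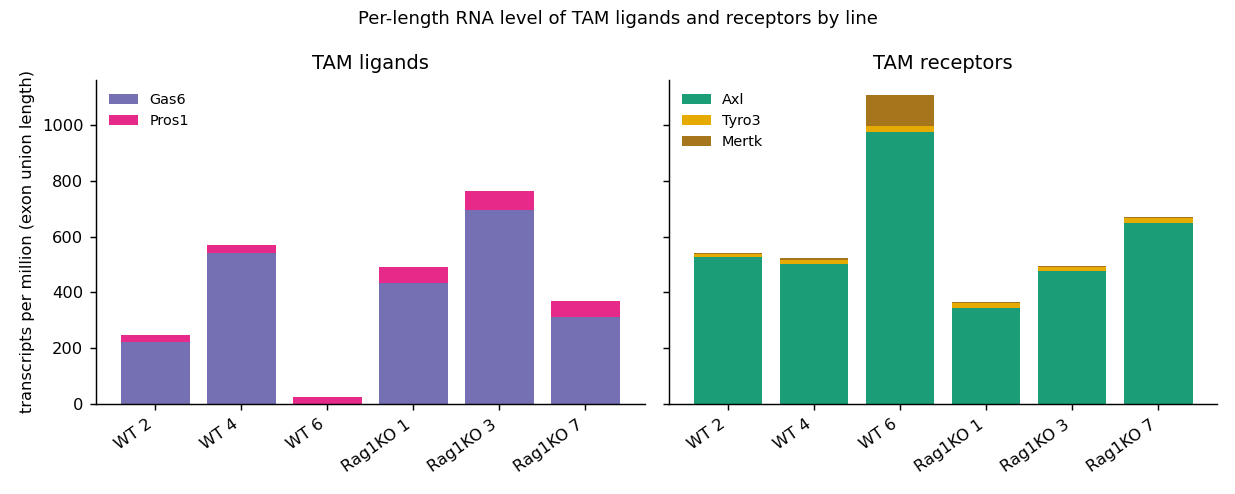
Stacked bars give TPM (by exon union length) of the ligands Gas6 and Pros1 on the left and of the receptors Axl, Tyro3 and Mertk on the right, 1 bar per line. Gas6 fills most of every ligand bar except that of WT 6, where only Pros1 (23.6 TPM) is visible, and Axl fills most of every receptor bar, with Mertk visible as 9.99% of the WT 6 bar.

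Genes near the members were examined in WT replicate 6, within 500 kb; for members other than Pros1 this was chosen after their values were seen. Near Gas6, 16 of 25 protein-coding neighbours were tested. The nearest tested genes on each side kept their reads: Tfdp1, a partner of E2F factors, had 9289 normalized counts against 4588 to 9481 in the other lines, and Rasa3, a Ras GTPase-activating protein, had 12141 against 4143 to 9410. Mcf2l, a guanine nucleotide exchange factor 444 kb away, had 4.4 normalized counts against 66.6 to 1201, and F7, coagulation factor VII, had 0 reads against 0.969 to 34.8 normalized counts. Tmco3, 142 kb away, was also lowest in WT replicate 6, at 1483 against 2527 to 2993. So were, on the side of Rasa3, Fbxo25 at 991 against 1949 to 2287 and Tdrp at 12.3 against 23.0 to 328. Cdc16 and Upf3a were lowest by less, while Rasa3, Pcid2 and Champ1 were highest there. Over all genes tested, WT replicate 6 was the lowest line for 30.2% and the highest for 27.4%. Near Mertk, 11 of 14 neighbours were tested. Anapc1, an anaphase-promoting complex subunit 11.6 kb away, had 11885 normalized counts against 9537 to 12429, and Tmem87b, 15.2 kb away on the other side, had 2087 against 1447 to 2631. Farther away, 4 of the 11 were highest in WT replicate 6, as Mertk was: Zc3h8 at 355 normalized counts against 128 to 199, Slc20a1, a phosphate transporter gene, at 9089.9 against 2606 to 5959, Polr1b at 1965 against 981 to 1685, and Chchd5 at 949 against 574 to 671. Since 27.4% of all genes tested were highest in that line, nothing is read from this count. The nearest tested neighbours of Gas6 and of Mertk did not share the extreme values of WT replicate 6.

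Near Pros1, 2 of 3 neighbours were tested. Nsun3, a mitochondrial tRNA methyltransferase, and Arl13b, a ciliary GTPase, had log2 differences of -0.04 (SE 0.28) and 0.16 (SE 0.32), with adjusted p = 0.982 and 0.921 in limma, and their groups overlapped. Both were highest in WT replicate 6, at 900.2 and 1545 normalized counts, where Pros1 was lowest.

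**Figure D3:**
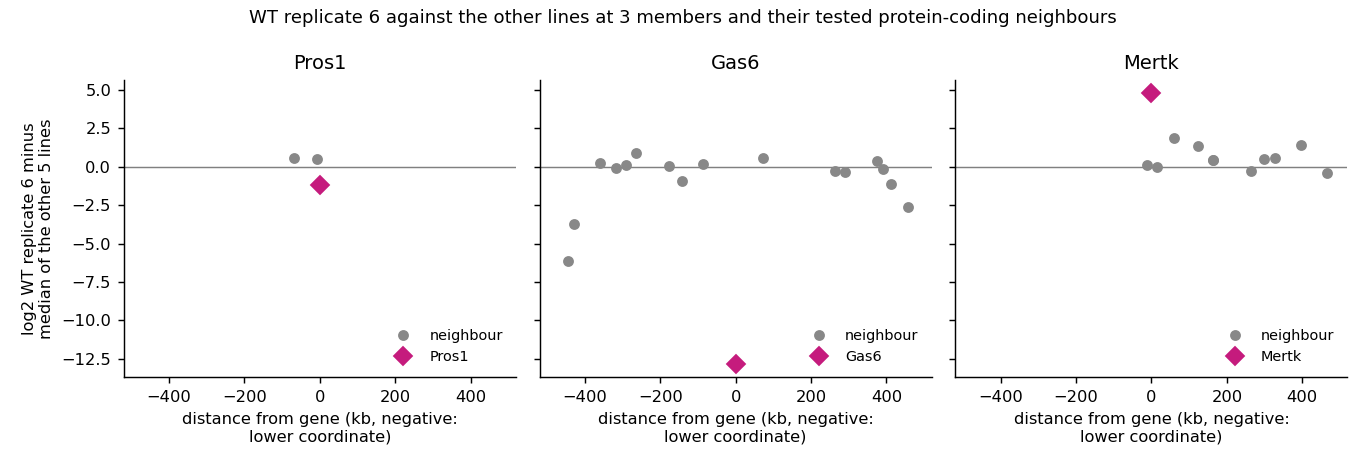
For Pros1, Gas6 and Mertk (pink diamonds at 0) and their tested protein-coding neighbours (grey points), the vertical axis is the log2 value in WT replicate 6 minus the median of the other 5 lines, and the horizontal axis is the distance from the member in kb. Gas6 lies at -12.82 and Mertk at 4.77, while their nearest neighbours lie near 0.

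Whole chromosomes were compared in the same way, a step also chosen after values were seen. Each gene's log2 value was set against its median over the 6 lines, and for the 883 genes of chromosome 7 with a mean of at least 1 log2 CPM the median of these deviations was -0.33 in Rag1KO replicate 1, the line with the least Axl. It was 0.16 in WT replicate 6, the line with the most Axl, and between -0.04 and 0.09 in the others. Chromosome 7 ranked 3 of 20 in WT replicate 6, behind chromosomes 19 (0.32) and 4 (0.24), and chromosomes 10 (-0.43) and 15 (-0.30) deviated the other way. Over all 12480 such genes, medians lay between -0.01 and 0.01 in every line. Chromosome 2, which carries Tyro3 and Mertk, had medians between -0.02 and 0.03. Chromosome 8, which carries Gas6, had -0.29 in Rag1KO replicate 3, the line with the most Gas6, and 0.15 in Rag1KO replicate 1. It had -0.01 in WT replicate 6 and lay between -0.01 and 0.04 in the other lines. Chromosome 16, which carries Pros1, had 0.18 in Rag1KO replicate 1 and -0.24 in WT replicate 2 and lay between -0.02 and 0.03 in the other lines. The part of such shifts in the levels of Axl, Gas6 and Pros1 was not tested.

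The genes whose log2 values followed each member most closely were ranked by Pearson's r over the 6 lines, as a description. The ranking covered 11249 genes of at least 1 log2 CPM, with predicted gene models left out. For Pros1 they were Iffo1 (r = 0.989), Prkab2 (0.987), Caskin2 (0.986), Mapkbp1 (0.983) and Zkscan7 (0.982), on chromosomes 6, 3, 11, 2 and 9. Prkab2, a subunit of AMP-activated kinase, had 1427, 1707 and 1351 normalized counts in the lines labelled Rag1KO and 871, 941 and 612 in those labelled WT, with the same order of lines as Pros1. Without WT replicate 6 the r values of these 5 genes with Pros1 were 0.975 to 0.995. For Axl the closest were Dmwd (0.993), Pnpla2 (0.990) and Spcs2 (0.989), all on chromosome 7 like Axl. That chromosome holds 7.08% of the 12480 genes of at least 1 log2 CPM, a set that includes predicted gene models. Pnpla2, adipose triglyceride lipase, had 639 normalized counts in Rag1KO replicate 1 and 3832 in WT replicate 6, its lowest and highest lines as for Axl.

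For Gas6 the closest were Galnt17, Rbpms and Ppp1r3d, each with r = 0.999, and for Mertk they were Cnnm2 (0.998), Spred1 (0.996) and Gpat3 (0.991). Without WT replicate 6 the r values were 0.951, 0.95 and 0.921 for Gas6 and 0.972, 0.965 and 0.889 for Mertk, in the same order of genes. Galnt17, a glycosyltransferase gene, had 4352 to 9488 normalized counts in 5 lines and 1 read in WT replicate 6. Gpat3, an acyltransferase of lipid synthesis, had 1835 normalized counts in WT replicate 6 and 42.9 to 105 elsewhere. For Tyro3 the closest were Sox5 (0.989), Abhd14a (0.971) and Ddx39b (0.967).

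Among the members, r over the 6 lines was 0.67 for Pros1 with Gas6 and -0.80 for Pros1 with Mertk, and without WT replicate 6 it was 0.43 and -0.89. For Gas6 with Mertk it was -0.96 over 6 lines and -0.16 over 5. Only 5 or 6 points that share 2 host labels stand behind each of these.

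Genes that act with TAM receptors were taken from 8 lists with 131 genes, of which 103 passed the filter on low counts. Across all genes limma called 1 of 16137 (0.00620%), Eif2s3y on chromosome Y, which was named after its values were seen. edgeR called 0 and DESeq2 65 of 15863 (0.410%), and at an unadjusted p under 0.05 limma had 754 genes (4.67%), edgeR 717 and DESeq2 1055. Of the 103 listed genes, limma and edgeR called 0, DESeq2 called 2, and 7 had an unadjusted p under 0.05 in limma and 7 in edgeR, with adjusted p between 0.850 and 0.997 in limma. In 6 of the 103 (5.83%) every line labelled Rag1KO was higher and in 6 (5.83%) every line labelled WT was higher, shares near the 5.60% and 6.49% of all genes. The median log2 difference, Rag1KO minus WT, was 0.07 over the listed genes and -0.000303 over all genes tested.

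The vitamin K cycle supplies the carboxylation that makes protein S and Gas6 active. All 8 of its listed genes were tested, 0 had an unadjusted p under 0.05 in limma, and their median log2 difference was 0.03. Ggcx, the gamma-glutamyl carboxylase itself, had 2634, 2804 and 3476 normalized counts in the lines labelled Rag1KO and 1837, 2864 and 2067 in those labelled WT. Its groups overlapped, with a log2 difference of 0.41 and an SE of 0.23. Calu, which encodes calumenin, an inhibitor of that carboxylase, had 80359, 85439 and 83128 normalized counts against 59497, 64454 and 65890. Its groups did not overlap, and its log2 difference of 0.39 (SE 0.19) had adjusted p = 0.850 in limma. Vkorc1, the epoxide reductase that recycles vitamin K, had 43.1 to 114 normalized counts in the lines labelled Rag1KO and 40.3 to 105 in those labelled WT.

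Of the other proteins with a Gla domain, 5 of 14 passed the filter and 2 of these, Mgp and Prrg4, were called by DESeq2 alone. Mgp, matrix Gla protein, an inhibitor of calcification, had 1484, 647 and 343 normalized counts in the lines labelled Rag1KO and 6076, 4808 and 20975 in those labelled WT. Prrg4, a transmembrane Gla protein, had 18.2, 29.0 and 57.2 against 407, 108 and 795. The groups did not overlap for either gene, and WT replicate 6 was the highest line for both. The log2 difference of Mgp was -3.62 (SE 0.75), with adjusted p = 0.850 in limma and 0.00243 in DESeq2, and that of Prrg4 was -3.35 (SE 0.85), with 0.850 and 0.00665. Without WT replicate 6 they were -2.97 and -2.71. The list's median over 5 genes was -0.49 and had no stable sign, being -1.97 without WT replicate 6, 0.61 without WT replicate 4, 0.26 without Rag1KO replicate 7 and 0.26 with a pseudocount of 0.1. The coagulation proteins F2, F9, F10, Proc and Proz did not pass the filter.

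Partners of protein S in coagulation gave 6 of 11 tested genes, 1 of them with an unadjusted p under 0.05 in limma, a median of 0.86, and 0.37 without WT replicate 6, which was the lowest line for 5 of the 6. Tfpi, the tissue factor pathway inhibitor for which protein S is a cofactor, had 8075, 9707 and 8603 normalized counts in the lines labelled Rag1KO and 8084, 3662 and 2553 in those labelled WT. Its log2 difference was 1.05 (SE 0.43, adjusted p = 0.850 in limma) and 0.69 without WT replicate 6. Procr, the endothelial protein C receptor, had 1069, 907 and 565 normalized counts against 1127, 183 and 100.3, and its groups overlapped too.

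Genes that expose phosphatidylserine, the lipid that bridges these ligands to membranes, had a median of 0.000681 over 12 of 17 tested genes, and 0 of the 12 had an unadjusted p under 0.05 in limma. The scramblase gene Ano6 had 18633 to 31894 normalized counts in the lines labelled Rag1KO and 19270 to 29488 in those labelled WT. Xkr8, a scramblase cleaved by caspases, had 349 to 757 and 377 to 584. The 2 with the lowest p were Atp8b2, a P4-type ATPase, at 0.47 (SE 0.22), and the scramblase family gene Plscr2, at -0.97 (SE 0.50), both with overlapping groups. Without WT replicate 2, the highest line for Plscr2, its log2 difference was -0.57.

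Other phosphatidylserine receptors and bridging proteins had a median of 0.68 over 13 of 20 tested genes, 0.37 without WT replicate 6, which was the lowest line for 9 of the 13. 0 of the 13 had an unadjusted p under 0.05 in limma. Mfge8, a bridging protein for integrins, had 17718, 20171 and 18423 normalized counts in the lines labelled Rag1KO and 13911, 14718 and 15718 in those labelled WT. The groups of Mfge8 did not overlap, and its log2 difference was 0.34 (SE 0.15, adjusted p = 0.850 in limma). Ager, a receptor of the immunoglobulin superfamily, stood at 1.43 (SE 0.64), with 326, 211 and 107 normalized counts against 87.6, 114 and 36.1, and at 0.95 without WT replicate 6.

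Of the machinery that engulfs apoptotic cells downstream of these receptors, 18 of 20 genes were tested, with a median of 0.12, and -0.15 without WT replicate 6. Unadjusted p was under 0.05 in limma for Vav3 and Elmo3. Vav3, a guanine nucleotide exchange factor, had 47.0, 138 and 54.3 normalized counts in the lines labelled Rag1KO and 380, 207 and 1511 in those labelled WT. The groups of Vav3 did not overlap, its log2 difference was -2.78 (SE 0.85, adjusted p = 0.850 in limma), and it was -1.97 without WT replicate 6. Elmo3 and Elmo2, adaptors of the Dock exchange factors, were higher in every line labelled Rag1KO, with log2 differences of 1.18 (SE 0.43) and 0.39 (SE 0.19) and adjusted p = 0.850 for both in limma. Elmo3 had 184, 92.7 and 126 normalized counts against 69.5, 47.3 and 54.6.

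Signalling, feedback and shedding of TAM receptors gave 24 tested genes of 24, a median of -0.13, and 0.06 without WT replicate 6. Unadjusted p was under 0.05 in limma for Ranbp9 and Adam17. Adam17, a protease that with Adam10 releases the extracellular part of Mertk and Axl, had 4120, 3350 and 2747 normalized counts in the lines labelled Rag1KO and 4422, 4781 and 6930 in those labelled WT. The groups of Adam17 did not overlap, and its log2 difference was -0.65 (SE 0.25, adjusted p = 0.850 in limma), or -0.45 without WT replicate 6. Adam10 had 8607 to 11014 normalized counts in the lines labelled Rag1KO and 8539 to 15715 in those labelled WT. Ranbp9, a scaffold protein that binds receptor kinases, had 3336, 3420.4 and 3344 normalized counts against 4857, 4361 and 4233, and stood at -0.41 (SE 0.14). Ptpn12, a tyrosine phosphatase, also had groups that did not overlap, at a log2 difference of 0.12 (SE 0.14). Socs1 and Socs3, inhibitors of cytokine signalling that TAM receptors induce in dendritic cells, stood at 0.19 (SE 0.60) and -0.42 (SE 0.67), and Socs3 at 0.28 without WT replicate 6, its highest line with 2602 normalized counts.

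YAP, TEAD and AP-1 factors act upstream of Axl in several tumour types. The list around them also held other genes, among them Lats1, Lats2, Ccn1, Ccn2, Ankrd1, Amotl2, Hif1a and Epas1. All genes of the list were tested, 17 of 17. Their median was 0.22, and -0.02 without WT replicate 6, which was the lowest line for 9 and the highest for 5. None of the 17 passed limma or edgeR, and unadjusted p was under 0.05 for 0 in limma and 1 in edgeR. Yap1 had 8718 to 11644 normalized counts in the lines labelled Rag1KO and 7200 to 11834 in those labelled WT. Tead4, a DNA-binding partner of YAP, had 227, 176 and 104 normalized counts against 356, 282 and 1421, at a log2 difference of -1.69 (SE 0.70), and -0.97 without WT replicate 6. Amotl2, a YAP target and inhibitor, had 18964, 29813 and 19979.9 against 13483, 12503 and 1871, at 1.72 (SE 0.79), and 0.79 without WT replicate 6. The groups of Tead4 and of Amotl2 did not overlap, with adjusted p = 0.850 in limma for both.

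**Figure D4:**
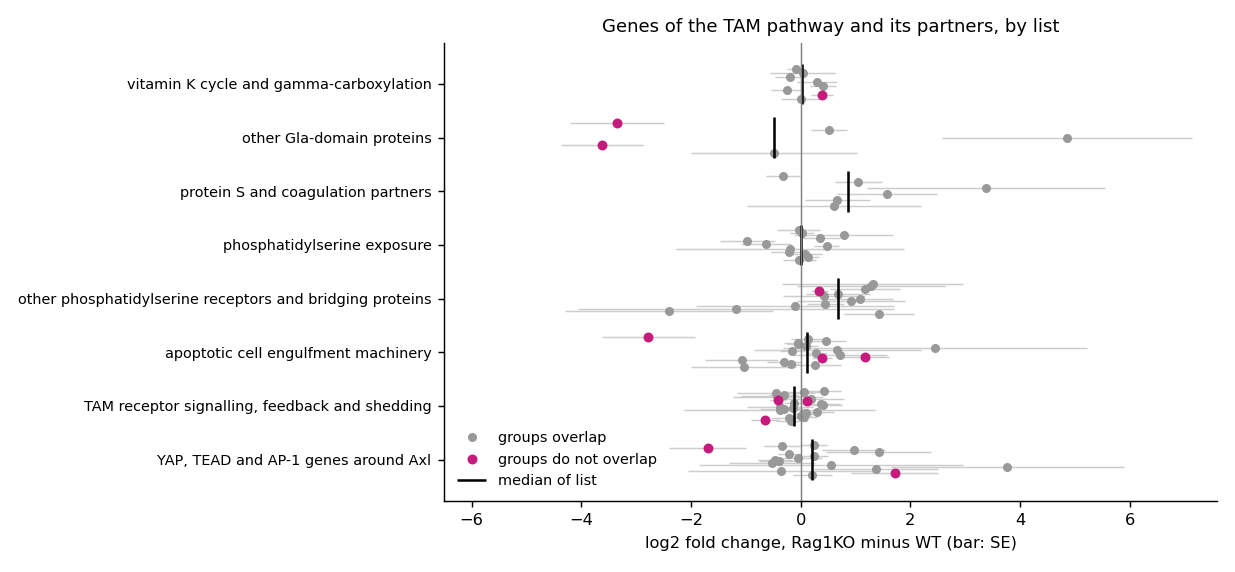
Each point is the log2 difference, Rag1KO minus WT, of 1 tested gene of the 8 lists, with its SE as a horizontal bar; pink points are genes whose groups do not overlap and black bars are list medians. The pink points lie on both sides of 0, 6 on each, and the widest bars belong to genes that vary widely within groups.

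Marker genes of other cell types were examined beside these results, since macrophages express Mertk and endothelium expresses Pros1. Of 16 leukocyte and macrophage markers, Fcgr1, C1qa, C1qb, C1qc and Tyrobp had 0 reads in all 6 lines, which allows up to 3.48 normalized counts, and Ptprc had at most 3.83. The list's summed level was 462 to 2119.8 normalized counts in the lines labelled Rag1KO and 360 to 913 in those labelled WT, lowest in WT replicate 6. Single markers of the list differed in direction: in WT replicate 6, the line with the most Mertk, Laptm5, a lysosomal protein of blood cells, had 104 reads against 0 to 7 in the other lines, whereas Lyz2, lysozyme, had 0 reads against 71.7 to 1493 normalized counts. Csf1r, the receptor of a macrophage growth factor, had 4.4 normalized counts there against 72.5 to 429, and Cd68 and Cd14 had 75.6 to 142 and 126 to 347 over the 6 lines. The part of such cells in the Mertk values was not tested. The endothelial markers Tie1 and Cldn5 and the lymphocyte markers Cd3e, Cd8a and Ms4a1 had 0 reads in all lines. Summed levels over 9 endothelial markers were 241 to 1536 normalized counts in the lines labelled Rag1KO and 41.4 to 1049.6 in those labelled WT. Tek had 7.04 to 1243 over the 6 lines, the most in Rag1KO replicate 7, where the sum was highest. Cdh5 had 9.58, 0 and 0.969 in the lines labelled Rag1KO and 17.1, 40.6 and 16.7 in those labelled WT. Its groups did not overlap (adjusted p = 0.850 in limma), in the opposite direction to Pros1. The other tested markers, Kdr, Tek and Vwf, had positive log2 differences and overlapping groups. The part of such cells in the Pros1 values was not tested. Summed levels over 10 lymphocyte markers were 51.3 to 104 in the lines labelled Rag1KO and 7.04 to 91.7 in those labelled WT. Except in WT replicate 6 they came mostly from Trac, at 42.6 to 102 and 2.64 to 87.9, the only 1 of the 10 that passed the filter. Epcam of the epithelium, Dct of melanocytes and Alb, Serpina1a and Fgb of hepatocytes had 0 reads in all lines.

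The 12 fibroblast and mesenchyme markers were all tested, and every line had high Vim, which encodes vimentin, at 190559 to 380691 normalized counts. WT replicate 6 differed from the others in part of this list: its sum was 498723 normalized counts against 1609650 to 2563920, and it had 206 of Col1a1, a collagen chain, against 478322 to 1051710, and 1 read of Thy1. It was the lowest line for 6 of the 12 markers and the highest for 1, Fap, at 686 against 4.03 to 184. Col3a1, at 126015 against 105461 to 350041, and Pdgfra, at 16592 against 7299 to 48300, lay within the range of the other lines. The part of these differences in the Gas6 and Mertk values of that line was not tested.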

How the data were processed

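RNA from 6 cell lines, 3 per host genotype, was sequenced from TruSeq Stranded libraries, per the labels' protocols. The submitters' processing notes list STAR 2.7.9a, Trim Galore 0.6.6, FastQC, DESeq2 and the build mm10 but not their use, and the read counter and annotation are not given in the sources used here. Each deposited file gives a signal per gene for 1 library, which the values show to be read counts that the authors divided by 1 size factor per library: multiplied back, 100% of values were whole within 0.01 reads. Genes were matched to GENCODE M21 (55141 of 55401) for coordinates and exon lengths. edgeR's filterByExpr kept 16137 genes. limma 3.58.1 was fitted with a mean-variance trend to log2(value + 1), Rag1KO minus WT, two-sided, Benjamini-Hochberg adjusted, threshold 0.05. Folds and log2 differences are on that scale. Alternatives were edgeR 4.0.16 and DESeq2 1.42.0 on recovered reads, other scalings, filters and a pseudocount of 0.1, and leaving out each line. Within-line ratios used exact sign-flip tests. limma was tested on simulated data. A count of 0 allows 3 reads, 2.64 to 3.48 normalized counts. Intervals cover counting error only.

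The members and gene lists were chosen with earlier results of these data known. Named genes are the members, coding genes within 500 kb of Pros1, per list up to 3 genes of lowest limma p whose groups do not overlap (filled to 2 by lowest p), 10 genes fixed by name, and the 5 genes most like Pros1 and 3 most like each other member. Other genes were named after their values were seen. Calculations used R 4.3.3 and Python 3.11.15 with matplotlib 3.10.9.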

Additional observations from a re-analysis of the deposited data

Results flagged for a closer look

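Within-line ratios of 3 of the 4 gene pairs had 1 line far from the others, and in each it was WT replicate 6. For Gas6 against Pros1 the gap from this line to its nearest neighbour was 0.874 of the range over the 6 lines, with a log2 ratio of -9.29 against 2.49 to 4.19 in the others. For Axl against Mertk the gap was 0.660 of the range, with 3.14 against 6.30 to 7.92. For Tyro3 against Mertk it was 0.665, with -2.39 against 1.03 to 2.76. Chance marks about 1 group in 20 by this rule where no line stands apart, whereas WT replicate 6 stood apart for many genes here. The 3 flags restate its Gas6 and Mertk values, and the Mertk pairs share 1 gene, so they are not independent.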

How the results depend on the processing

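The count of genes called between the groups was 1 in limma, 0 in edgeR and 65 in DESeq2, and with 1 line left out it ranged from 0 to 5, the 5 being without WT replicate 6. Each member's difference between groups kept its sign under all alternatives except Tyro3, at -0.15 without WT replicate 2. No member's difference was used as a test. Among the other named genes, none of which passed limma, signs changed for Ano6 (0.0065 in edgeR, 0.0056 in DESeq2, -0.28 to 0.16 with 1 line left out), Xkr8 (0.0327 in edgeR, 0.0322 in DESeq2, -0.37 to 0.19), Vkorc1 (-0.37 to 0.42), Adam10 (-0.33 to 0.11), Socs1 (-0.24 to 0.75), Socs3 (-1.03 to 0.28), Nsun3 (-0.18 to 0.20) and Arl13b (-0.12 to 0.42). The median of other Gla-domain proteins ranged from -1.97 to 0.61. Per-length levels depend on the annotation, though little for Axl's share of receptor RNA. With the longest transcript this share was 89.1% to 97.2% over the 6 lines, against 88.1% to 97.4% with the exon union. The 4 within-line ratios kept their direction with other lengths, a pseudocount of 1 and each line left out. No paired analysis was possible because the groups share no replicate number. Depth limits Gas6 in WT replicate 6 (2 reads).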
